A study of Drosophila melanogaster with 24 samples.

Results

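Wings of 36 h after puparium formation (APF) were compared with wings of 6 h APF on NimbleGen expression arrays of Drosophila melanogaster. The comparison takes the 3 arrays titled 36 h B, C and D and the 4 arrays titled 6 h A, B, D and E, which makes 7 of the 24 arrays in the series. A further array of 36 h RNA, pooled from samples B and D, was left out of the test because its RNA is already counted. All flies were w1118;+;+, a white-eyed laboratory strain from Bloomington stock 3605, raised at 25 °C, and none of them was treated. Total RNA of 10 wings per sample went through linear amplification and a Cy3 label and was hybridized with no second dye, and the samples of a stage were described as independent replicates. Each array gave 1 intensity for each of 15473 transcripts. The presumptive notum, the part of the disc that forms the back of the thorax, was absent from the 36 h samples and present in the 6 h samples. Stage and notum therefore cannot be told apart in this comparison. The stage field of the labels gives 36 h for all 7 arrays, and it also differs from the titles of arrays at 2, 18 and 24 h APF and of the pooled array. Stages were therefore taken from titles and descriptions throughout.

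During metamorphosis the steroid hormone ecdysone drives the wing disc through a prepupal and then a pupal phase. The prepupal wing everts, elongates and brings its dorsal and ventral sheets together, and many of its cells pause before a last division. The pupal wing has left the cell cycle, its cells have packed into a regular lattice, and each begins to build a hair and then cuticle.

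Arrays of the same stage resembled each other more than arrays of different stages. Pearson correlations over transcripts were 0.966 to 0.977 among the 36 h arrays, 0.978 to 0.992 among the 6 h arrays, and 0.863 to 0.902 between stages. The median standard deviation (SD) of a transcript was 0.277 on the log2 scale at 36 h APF and 0.229 at 6 h APF. Between 1109 and 1598 transcripts of a 36 h array deviated over 2-fold from its stage (the mean without that array), against 208 to 990 transcripts of a 6 h array. That mean holds fewer arrays at 36 h than at 6 h APF, which by itself widens the deviations at 36 h APF. Array medians ran from 9.36 to 9.43 at 36 h APF and from 9.46 to 9.53 at 6 h APF. Only 17 transcripts could be tied to a single gene and 27 to a messenger RNA shared by several genes, and 15429 carried an identifier alone. Markers of wing, notum, muscle precursors or blood cells were not among the named transcripts, so the tissue of the label was not checked against them.

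Most transcripts were called different between the stages in the reported fit, though not in every alternative. With a change over 1.5-fold also required the share was 46.2%, and with slide as a fixed block 7553 transcripts were called. At a Benjamini-Hochberg adjusted p under 0.05 in limma, 8508 of 15473 transcripts (55.0%) were called, 4184 (27.0%) of them higher and 4324 (27.9%) lower at 36 h APF. Joint quantile normalization bears on the balance of higher and lower calls, and this balance moved to 4786 higher and 3820 lower with array medians centred again. Apart from normalization, leaving out dim transcripts left 7677 tested, of which 1847 were called higher and 3186 lower. The median change was 2.22-fold among the higher and 2.19-fold among the lower transcripts. A change over 2-fold was reached by 2483 higher and 2406 lower transcripts, together 31.6% of all. Over 8-fold there were 297 higher and 412 lower transcripts (4.58% of all), and over 32-fold 76 higher and 102 lower. In these whole wings fewer cells of a type and less RNA per cell cannot be told apart.

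Among large changes lower transcripts outnumbered higher ones, and calls depended on the level of the transcript. Transcripts were divided by their mean level over all stages into 4 groups of equal size. From the dimmest to the brightest group 24.0%, 38.8%, 22.4% and 23.1% were called higher. In the same order 7.99%, 24.2%, 47.6% and 31.9% were called lower, so neither share followed the level steadily. Of the 709 transcripts called over 8-fold, 229 had a mean under 6.70 on the log2 scale, the upper edge of the dimmest group, in their lower stage. RMA and quantile normalization compress such dim values, and no detection call was available. The log2 difference of the median transcript was 0.04.

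The 3 arrays of 36 h APF did not overlap the 4 arrays of 6 h APF for 8262 transcripts (53.4%), 3918 of them (25.3%) higher and 4344 (28.1%) lower at 36 h APF. Of these, 825 did not pass the test, and 1071 called transcripts had arrays that overlapped. Among the 6965 transcripts not called, the 95% limits of the difference lay within 1.5-fold in either direction for 2560 and within 2-fold for 5154. For the other 1811 a change over 2-fold was within the limits.

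**Figure D1:**
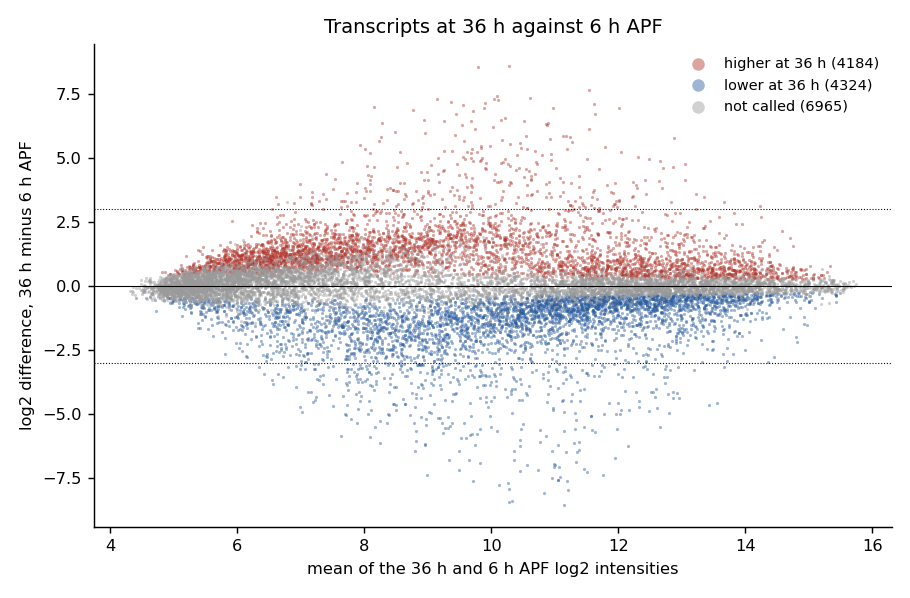
Log2 difference (36 h minus 6 h APF) against the mean of the stage means for 15473 transcripts, with 4184 called higher in red, 4324 called lower in blue and 6965 not called in grey. Dotted lines mark 8-fold, beyond which 297 transcripts were higher and 412 lower, and called higher transcripts are frequent at low means.

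Among the transcripts that rose or fell most, the level in the lower stage was near the floor of the intensity range, so their log2 differences depend on how dim values are treated and no fold is given. FBtr0078614 stood at log2 values of 14.49, 14.58 and 14.66 in the 36 h arrays B, C and D, against 6.78, 6.15, 5.35 and 5.68 in the 6 h arrays A, B, D and E. It was higher at 36 h APF, with a log2 difference of 8.59 ± 0.33 (SE, limma adjusted p = 3.33e-14), or 7.56 when 64 was added to each intensity before the logarithm. FBtr0080214 stood at 14.08, 14.08 and 14.05 at 36 h APF, against 5.72, 5.18, 5.66 and 5.51 at 6 h APF, with a log2 difference of 8.55 (limma adjusted p = 3.89e-16), or 7.29 with 64 added. No array of one stage came near the other in either transcript, and both had means under 6 at every stage other than 36 h APF.

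Both lowered transcripts were bright in all 6 h arrays. FBtr0080124 stood at 8.84, 5.43 and 6.39 at 36 h APF, against 15.50, 15.33, 15.36 and 15.47 at 6 h APF, a log2 difference of -8.53 ± 0.46 (SE, limma adjusted p = 4.2e-12), or -7.76 with 64 added. Its 36 h arrays spread widely (SD 1.76, n = 3), with array B above C and D, but none approached a 6 h value. The difference was -9.51 without 36 h array B and -7.80 without 36 h array C. Its mean was 8.37 at 2 h APF and 5.46 at 18 h APF, so its high level was found at 6 h APF only among the 6 stages. FBtr0087628 stood at 6.36, 5.90 and 5.93 at 36 h APF, against 14.70, 14.26, 14.47 and 14.53 at 6 h APF, with a log2 difference of -8.43 (limma adjusted p = 5.65e-15), or -7.46 with 64 added. Its path between the stages was not steady, with means of 7.50 at 18 h APF and 10.22 at 24 h APF. These 4 transcripts had no gene name in the tables used here.

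Among the 17 transcripts of a single gene, 2 were higher and 10 lower at 36 h APF. Together 12 of 17 (70.6%) were called, where 55.0% of all transcripts were, and their median log2 difference was -0.49 against 0.04 over all transcripts. Of the 17, 15 lay above the median level of all transcripts, a range in which 22.7% of all transcripts were called higher and 39.8% lower. The 36 h and 6 h arrays did not overlap for 11 of them, against 53.4% of all transcripts.

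**Figure D2:**
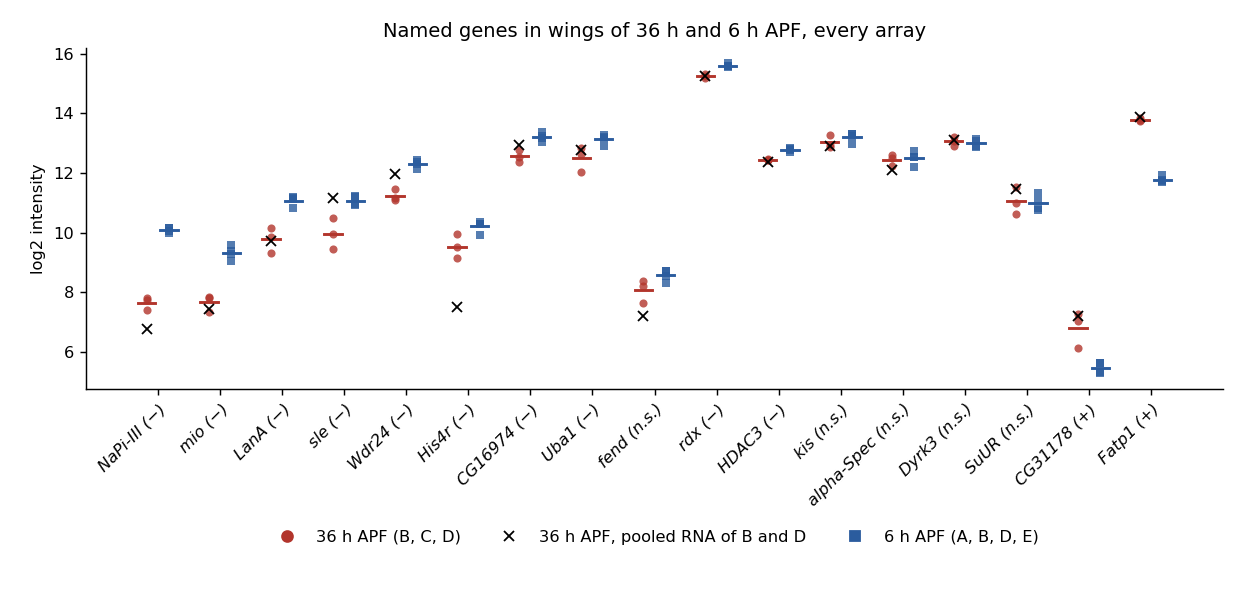
Log2 intensity of 17 named genes in each array, with the 36 h APF samples B, C and D as red circles, the pooled 36 h array as a black cross and the 6 h APF samples A, B, D and E as blue squares; bars are means, and +, − and n.s. mark genes called higher, called lower and not called at 36 h APF. The red and blue points of Fatp1, NaPi-III and mio are far apart, and those of alpha-Spec, SuUR and Dyrk3 lie over each other.

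The membrane transporters moved in opposite directions. Fatp1, a fatty acid transport protein that takes up and activates long-chain fatty acids, stood at 13.84, 13.73 and 13.78 at 36 h APF, against 11.69, 11.77, 11.93 and 11.73 at 6 h APF. It was 4.01-fold higher at 36 h APF (log2 difference 2.01, 95% limits 1.61 to 2.40, limma adjusted p = 1.77e-08), with every 36 h array above every 6 h array. Its mean was 11.60 at 18 h APF and 10.99 at 24 h APF, so the whole rise lay between 24 and 36 h APF, a step of 2.79. NaPi-III, a sodium-dependent phosphate cotransporter, stood at 7.40, 7.82 and 7.74 at 36 h APF, against 10.05, 10.15, 10.15 and 10.00 at 6 h APF. It was 5.42-fold lower (log2 difference -2.44, 95% limits -2.93 to -1.94, limma adjusted p = 3.23e-08), the largest change of the 17 genes. Its level at 18 h APF, 10.06, was that of 6 h APF, and it fell by 1.54 between 18 and 24 h APF and fell by 0.87 between 24 and 36 h APF.

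Both named genes of the GATOR2 complex, whose other subunits were not among the named transcripts and which relays amino acid supply to the growth kinase TORC1, were lower. The transcript of mio stood at 7.80, 7.85 and 7.35 at 36 h APF, against 9.60, 9.04, 9.39 and 9.28 at 6 h APF, 3.16-fold lower (log2 difference -1.66 ± 0.22 (SE), limma adjusted p = 2.58e-06). Wdr24 stood at 11.46, 11.09 and 11.16 at 36 h APF, against 12.43, 12.32, 12.38 and 12.14 at 6 h APF, 2.12-fold lower (log2 difference -1.08 ± 0.15 (SE), limma adjusted p = 5.44e-06). The arrays of the stages did not overlap for either gene. Both were above their 6 h level at 18 h APF, by 0.63 for mio and 0.37 for Wdr24. At 24 h APF mio, with a mean of 9.59, was still above its 6 h mean of 9.33. Wdr24, with a mean of 12.17, was already below its 6 h mean of 12.32. The step from 24 to 36 h APF was -1.92 for mio and -0.94 for Wdr24.

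Of the genes for extracellular matrix and membrane skeleton, LanA was lower and alpha-Spec did not pass the test. LanA, the alpha chain of the basement membrane protein laminin, stood at 9.33, 9.84 and 10.16 at 36 h APF, against 11.12, 11.18, 10.81 and 11.20 at 6 h APF, with no overlap (2.46-fold lower, limma adjusted p = 0.0005). Its mean was 9.56 at 18 h APF and 10.48 at 24 h APF. The transcript of alpha-Spec, a spectrin that lines the plasma membrane, stood at 12.61, 12.50 and 12.24 at 36 h APF, within the 6 h range of 12.22 to 12.73. Its log2 difference of -0.05 had 95% limits of -0.37 to 0.27 (limma adjusted p = 0.8), and its sign turned when the arrays were scaled in other ways.

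The ubiquitin pathway and chromatin genes had small differences. Uba1, the enzyme that activates ubiquitin for transfer, stood at 12.83, 12.04 and 12.64 at 36 h APF, against 13.17, 13.22, 12.90 and 13.29 at 6 h APF, 1.56-fold lower (limma adjusted p = 0.00448). The call was lost without 36 h array C (limma adjusted p = 0.0522). The transcript of rdx, a Cul3 ligase adaptor that targets the Hedgehog pathway factor Ci, was among the brightest, at 15.26, 15.32 and 15.19 at 36 h APF against 15.68, 15.57, 15.55 and 15.59 at 6 h APF. Its arrays did not overlap, but the difference was 1.27-fold and its adjusted p of 0.0382 in limma exceeded 0.05 in 11 of 21 alternatives.

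HDAC3, a histone deacetylase, stood at 12.46, 12.44 and 12.43 at 36 h APF, against 12.83, 12.71, 12.81 and 12.77 at 6 h APF. The difference was 1.26-fold, lower at 36 h APF (limma adjusted p = 0.00706), and the call was lost with the arrays rescaled (adjusted p = 0.0753 with medians centred again and 0.0582 with cyclic loess) or with slide as a block (0.0603). His4r, a replication-independent histone H4 gene, stood at 9.14, 9.95 and 9.51 at 36 h APF, against 10.29, 9.92, 10.28 and 10.36 at 6 h APF. The stages overlapped in 36 h array C and 6 h array B, the limma adjusted p was 0.0479, and the call was lost in 10 of 21 alternatives. Neither kis, a chromatin remodeller, with a log2 difference of -0.18, nor SuUR, which suppresses replication of heterochromatin in polytene cells, with 0.06, passed the test. Their 95% limits were -0.51 to 0.15 for kis and -0.31 to 0.42 for SuUR.

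The nucleolar gene sle and CG16974, a gene known by its number, were also lower. The transcript of sle stood at 9.95, 9.44 and 10.48 at 36 h APF, against 10.96, 11.18, 11.23 and 10.94 at 6 h APF, 2.17-fold lower (limma adjusted p = 2.19e-05). The arrays did not overlap, though the pooled 36 h array read 11.17, inside the 6 h range. At 18 h APF sle was 1.70 above its 6 h level, and it then fell by 1.04 to 24 h APF and fell by 1.78 from there to 36 h APF. CG16974 stood at 12.78, 12.38 and 12.53 at 36 h APF, against 13.38, 13.05, 13.25 and 13.17 at 6 h APF, 1.57-fold lower with no overlap (limma adjusted p = 0.000623).

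CG31178 was the other gene higher at 36 h APF, though dim at both stages. It stood at 7.04, 6.13 and 7.26 at 36 h APF, against 5.29, 5.63, 5.64 and 5.33 at 6 h APF, higher with no overlap and a log2 difference of 1.33 (limma adjusted p = 0.00927), or 0.72 with 64 added to the intensities. Without 36 h array D the adjusted p was 0.0549. The transcripts of fend, which acts in motor axon guidance, and Dyrk3, a dual-specificity protein kinase, were not called. Their log2 differences were -0.49 (95% limits -1.04 to 0.05) for fend and 0.05 (95% limits -0.23 to 0.34) for Dyrk3.

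The 27 shared messenger RNAs carry the reading frames of more than 1 gene each, and the array cannot tell those genes apart. Of them 7 were higher and 6 lower at 36 h APF, so that 13 (48.1%) were called, where 55.0% of all transcripts were, with a median log2 difference of -0.09. The 3 changes over 2-fold were all lower. The shared transcript of Sws1 and Rad1, Rad1 being a subunit of the DNA damage clamp, stood at 6.15, 6.32 and 6.61 at 36 h APF, against 9.82, 9.01, 9.78 and 9.68 at 6 h APF. It was lower at 36 h APF, with a log2 difference of -3.21 ± 0.22 (SE, limma adjusted p = 2.15e-10), or -2.50 with 64 added to the intensities. It was at its 6 h level at 18 h APF, with a mean of 9.57, and fell by 1.14 to 24 h APF and fell by 2.07 from there to 36 h APF.

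The transcript of Dpm2, a subunit of dolichol-phosphate-mannose synthase, and CG12016 stood at 8.29, 7.06 and 8.29 at 36 h APF, against 10.20, 10.19, 10.20 and 9.66 at 6 h APF. It was 4.54-fold lower (limma adjusted p = 1.6e-07), and its whole fall came after 24 h APF, where the mean was still 10.59. The transcript of CG45089 and ND-MNLL, a subunit of mitochondrial complex I, stood at 5.86, 5.92 and 5.29 at 36 h APF, against 8.06, 7.14, 7.60 and 7.42 at 6 h APF, a log2 difference of -1.86 (limma adjusted p = 1.28e-05), or -1.12 with 64 added. None of these 3 transcripts had overlapping arrays, and at 36 h APF Sws1/Rad1 and CG45089/ND-MNLL were below 6.70, in the range of the dimmest group of transcripts.

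The other called shared transcripts moved by less than 2-fold. Polr3K, an RNA polymerase III subunit, and Tcs1, which modifies transfer RNA, shared a transcript with a log2 difference of -0.93 (limma adjusted p = 0.00217), whose arrays overlapped between 36 h array C at 10.46 and 6 h array B at 10.34. Another tRNA modification gene, Tcs6, shares its transcript with PIG-P, which acts in making GPI anchors, and this transcript was higher, by 0.43 (limma adjusted p = 0.0101). PIG-M, a mannosyltransferase of the same pathway, was on a lower transcript, with a difference of -0.42 (limma adjusted p = 0.0023). The lower transcript of CG33995, CG44001 and CG44000, with a difference of -0.44, lost its call in 5 of 21 alternatives. The largest of the higher ones belonged to CG7071 and Muted, a subunit of the vesicle-sorting complex BLOC-1. It stood at 14.22, 14.23 and 13.96 at 36 h APF, against 13.54, 13.51, 13.40 and 13.64 at 6 h APF (log2 difference 0.61, limma adjusted p = 0.00017).

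Smaller rises of 0.50 for Mocs2A/Mocs2B, both subunits of molybdopterin synthase, and 0.42 for Tfb5/CG31917, where Tfb5 is part of the transcription factor TFIIH, had arrays that did not overlap. The rises of Tim10, a mitochondrial import chaperone, with CG42497 (0.35), of Rpp14a, an RNase P subunit, with CG7950 (0.40) and of CG6191/CG45088 (0.42) were each lost in 5 to 8 of 21 alternatives. The remaining 14 shared transcripts had log2 differences of -0.50 to 0.51 and were not called. For 12 of them the 95% limits lay within 2-fold.

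**Figure D3:**
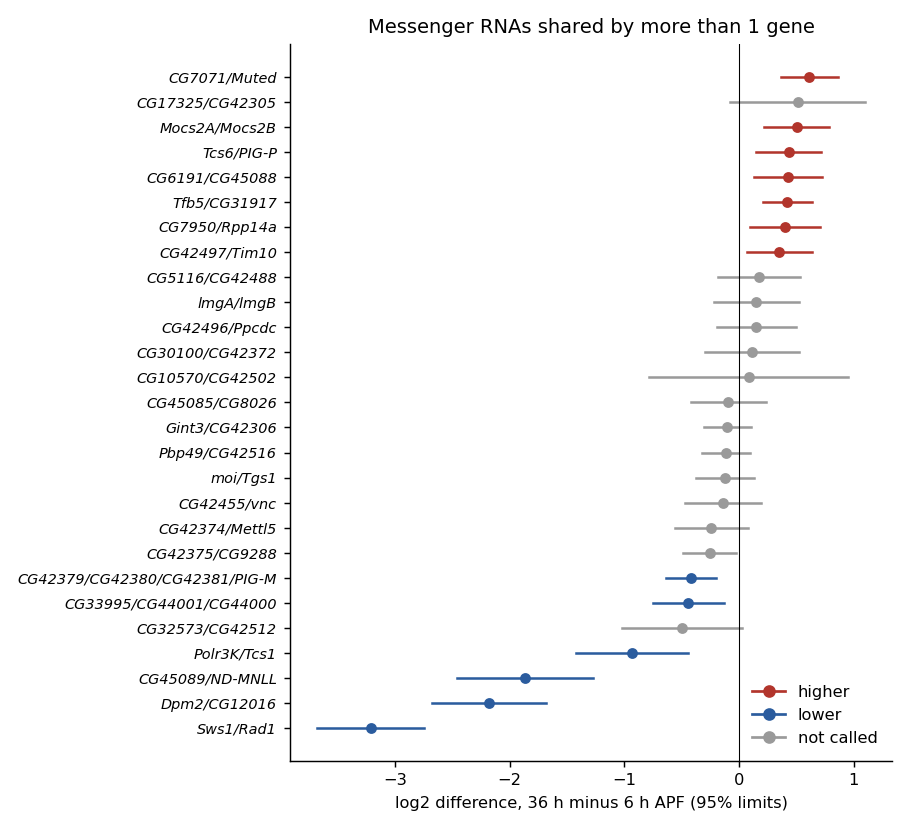
Log2 difference (36 h minus 6 h APF) of 27 messenger RNAs shared by more than 1 gene, as points with 95% limits of limma, 7 called higher in red, 6 called lower in blue and 14 not called in grey. Sws1/Rad1, Dpm2/CG12016 and CG45089/ND-MNLL lie at -3.21, -2.18 and -1.86, apart from the rest.

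The difference between 6 h and 36 h APF was followed over the intervals from 6 to 18 h, 18 to 24 h and 24 to 36 h APF, which last 12, 6 and 12 h. For the transcripts higher at 36 h APF, the median log2 step was 0.39 from 6 to 18 h, 0.08 from 18 to 24 h and 0.66 from 24 to 36 h APF. For those lower at 36 h APF it was -0.18, -0.10 and -0.74 in the same order, and over all transcripts 0.06, 0.03 and -0.06. The largest step in the called direction lay between 24 and 36 h APF for 55.2% of the higher and 62.4% of the lower transcripts, and between 6 and 18 h APF for 34.0% of the higher and 32.6% of the lower ones. The middle interval is shorter, and steps were not scaled to its length. The step from 6 to 18 h APF is also the step at which the notum left the samples. These steps use the arrays that chose the transcripts and are a description.

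At 24 h APF the median transcript called over 2-fold was still closer to its 6 h than to its 36 h level. The 2483 higher transcripts had covered a median of 30.0% of their log2 difference by 18 h APF and 32.4% by 24 h APF, and the 2406 lower ones 21.9% and 34.8%. By 24 h APF 36.4% of the higher and 39.9% of the lower transcripts were past the middle.

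**Figure D4:**
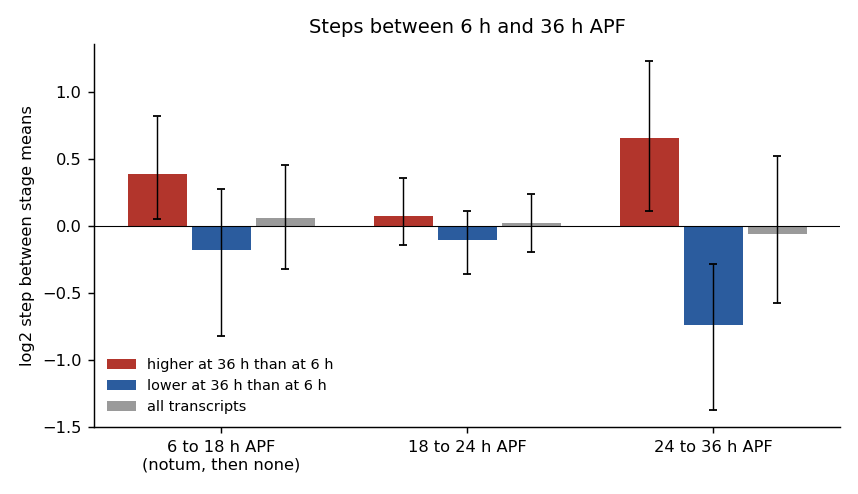
Median log2 step between stage means for transcripts called higher (red) and lower (blue) at 36 h than at 6 h APF and for all transcripts (grey), with lines from the lower to the upper quartile of transcripts. The medians are 0.66 and -0.74 from 24 to 36 h APF, and 0.08 and -0.10 from 18 to 24 h APF.

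Transcripts lowered over 8-fold had a peak at 6 h APF, and those raised over 8-fold climbed towards 36 h APF. Over the 412 lowered transcripts the median log2 level was 9.94 at L3, 9.81 at 2 h, 11.75 at 6 h, 9.42 at 18 h, 8.44 at 24 h and 7.36 at 36 h APF. Of them 264 (64.1%) were highest at 6 h APF and 117 (28.4%) at L3, and 249 (60.4%) were lowest at 36 h APF, where over all transcripts the shares were 15.8%, 19.6% and 30.8%. Over the 297 raised transcripts the median level was 7.75 at L3, 7.85 at 2 h, 7.64 at 6 h, 9.08 at 18 h, 10.13 at 24 h and 12.33 at 36 h APF. Of them 234 (78.8%) were highest at 36 h APF and 137 (46.1%) lowest at 6 h APF, where over all transcripts the shares were 31.7% and 20.0%. The choice of these transcripts fixes the order of 36 h and 6 h APF, so only their levels at the other 4 stages were free.

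The stages of highest and lowest level were also counted over the whole lists. Of all 4184 higher transcripts 72.1% were highest at 36 h APF and 45.5% lowest at 6 h APF, and 1015 (24.3%) were both, beside 31.7% and 20.0% of all transcripts at the single extremes. Of all 4324 lower transcripts 75.6% were lowest at 36 h APF, 38.1% highest at 6 h APF and 34.8% highest at L3, beside 30.8%, 15.8% and 19.6% of all transcripts, and 763 (17.6%) were lowest at 36 h and highest at 6 h APF. Here too the choice of the transcripts fixes the order of 36 h and 6 h APF, which raises the shares at these stages. The share at both extremes was not counted over all transcripts.

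**Figure D5:**
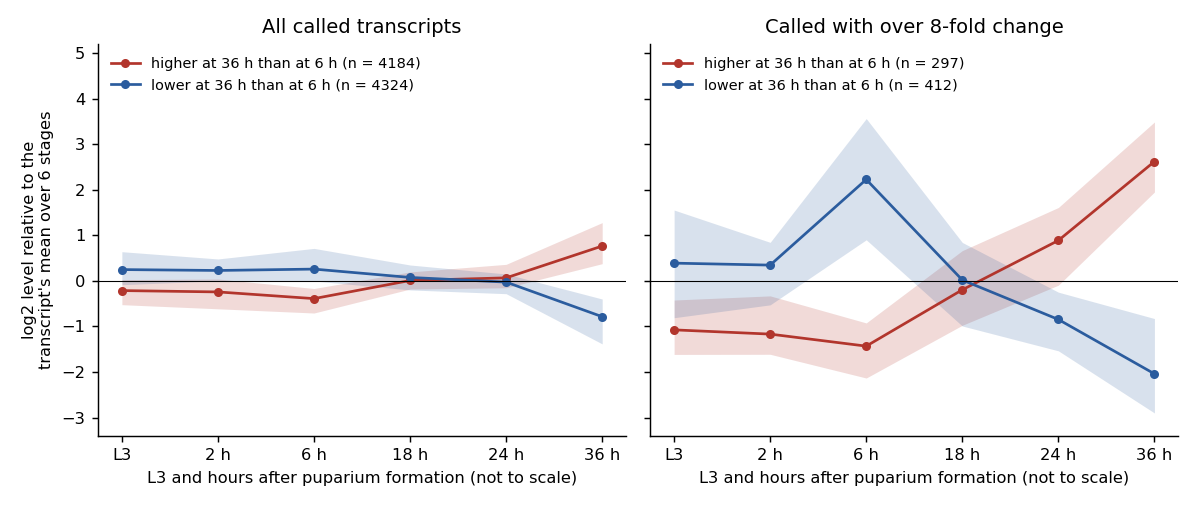
Median log2 level by stage, relative to each transcript's mean over the 6 stages, with bands from the lower to the upper quartile, for 4184 higher and 4324 lower transcripts (left) and the 297 and 412 of them that changed over 8-fold (right). The lowered transcripts on the right peak at 6 h APF, at 2.23, and the raised ones reach 2.62 at 36 h APF.

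Some transcripts with no call between the stages had changed in between. Of the 6965 not called, 1282 (18.4%) moved one way from 6 to 18 h APF and the other way from 24 to 36 h APF, both past the test in limma (40.5% of all transcripts passed it at 18 h against 6 h APF and 50.0% at 36 h against 24 h APF), 869 of them up and then down and 413 down and then up. Among the named genes kis rose by 0.54 from 6 to 18 h APF (limma adjusted p = 0.00525) and fell by 0.65 from 24 to 36 h APF (limma adjusted p = 0.00201), and alpha-Spec rose by 0.43 and fell by 0.52. The transcript of CG5116 and CG42488 averaged 9.34 ± 0.34 at 36 h APF (SD, n = 3) and 9.17 ± 0.21 at 6 h APF (SD, n = 4) but 10.93 at 18 h APF. In 4172 of the 6965 (59.9%) neither step was called. The shares with opposite steps and with neither step called were not counted over all transcripts. Choosing transcripts with no call between 6 and 36 h APF itself favours opposite steps.

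Wings of 24 h and 2 h APF gave a second contrast between wings without and with notum, on 8 other arrays. These enter the first contrast through the joint normalization and the common estimate of the spread, and the contrasts also share slides. Each 36 h array lay on a slide with a 24 h array, and 6 h arrays B, D and E each on a slide with a 2 h array. Calls in the same direction in both contrasts numbered 2728, and 2220 with slide as a fixed block. There 4946 transcripts (32.0%) were called, 2434 (15.7%) higher and 2512 (16.2%) lower at 24 h APF. Of the transcripts higher at 36 h than at 6 h APF, 1259 were also higher at 24 h than at 2 h APF, which is 30.1% of the first list and 51.7% of the second. Of the lower ones 1469 were lower in both, 34.0% of the first list and 58.5% of the second. Opposite calls were found for 654 transcripts, and 60.2% of the transcripts called at 36 h against 6 h APF were not called at 24 h against 2 h APF.

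Some named genes had like values in both contrasts and others did not. NaPi-III was lower in both, by -2.44 at 36 h against 6 h and -2.13 at 24 h against 2 h APF (limma adjusted p = 1.73e-07 in the second), as were LanA, at -1.30 and -1.89, and sle, at -1.12 and -0.86. Fatp1 was higher at 36 h against 6 h APF, at 2.01, and lower at 24 h against 2 h APF, at -0.79 (limma adjusted p = 0.00137). For Wdr24, at -1.08 in the first, the difference in the second was 0.00 (limma adjusted p = 0.983), and for mio, at -1.66 in the first, -0.48 (limma adjusted p = 0.0805). The differences between the contrasts were not tested.

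Of the 6 slides only 1 held tested arrays of both stages, 36 h array D and 6 h array E. Transcripts called on the remaining arrays alone numbered 7080, 3292 higher and 3788 lower at 36 h APF, and on the shared slide 96.5% of them changed the way they were called, where 83.9% of all transcripts changed the way fitted elsewhere. With slide as a fixed block in limma 7553 transcripts were called. On that slide Fatp1 differed by 2.04 and NaPi-III by -2.26, beside fitted differences of 2.01 and -2.44. Other named transcripts were further from the fit, such as sle, at -0.46 against -1.12, and Dpm2/CG12016, at -1.37 against -2.18. The fitted differences include the arrays of this slide, so the values are not independent of each other.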

How the data were processed

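Scanning and a joint quantile normalization of every array were done by the authors in NimbleScan, followed by RMA, also named in the submitters' processing notes, for 1 value per transcript. For the RMA version, genome build and annotation, no source used here gives a name. The deposited per-sample files hold linear intensity values for 15473 transcripts, from 3 to 5 probes each, and a deposited table of the whole series holds them on the log2 scale. No background or detection call was available, and precision is limited by the number of arrays. Normalizing arrays to a common distribution hides changes in total RNA. A column of standard errors was not used.

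All 23 arrays except the pooled one entered a limma fit (version 3.58.1, R 4.3.3) of log2 intensity with 1 mean per stage. Its contrast of 36 h minus 6 h APF was tested with a moderated statistic, and p was adjusted by Benjamini and Hochberg over 15473 transcripts, with calls under 0.05. The study's methods name an ANOVA at that threshold. Low values were not filtered. Described by name were all transcripts that a Release 6 gene table ties to a single gene, and by identifier the 2 most raised and the 2 most lowered ones with arrays that did not overlap. The 27 shared messenger RNAs were added after the table of names was seen. The members, the lists and the comparison were chosen with earlier results of these data known. Alternatives covered the pooled array, slide, position, the sample letter, the test, the arrays in the fit, scaling, offset, dim transcripts, the deposited table, thresholds and each array left out. The fit was tested on simulated data. Figures were drawn with matplotlib 3.10.9.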

Additional observations from a re-analysis of the deposited data

Results flagged for a closer look

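In 34 named transcripts the 4 arrays of 6 h APF were searched for a single array far from the others, by Dixon's gap criterion at the 95% level. Chance gives such a gap in about 1 of 20 groups. His4r read 9.92 in 6 h APF B, below 10.28 to 10.36 in the other 6 h arrays. Dpm2/CG12016 read 9.66 in 6 h APF E, below 10.19 to 10.20 in the others. Tcs6/PIG-P read 13.47 in 6 h APF E, above 13.20 to 13.23 in the others. Their causes were not tested. The 36 h group has 3 arrays and was not searched.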

How the results depend on the processing

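In most alternatives the counts kept within 1.5 times those reported. Called transcripts numbered 5033 with dim transcripts left out, with 7677 transcripts tested, 2763 with the Bonferroni adjustment, and 7149 (a change over 1.5-fold also required) to 9285 (the pooled array counted) in the other alternatives over all transcripts except the sample letter as a block. With dim transcripts left out 1847 were higher and 3186 lower at 36 h APF, 2224 changed over 2-fold and 338 over 8-fold. With array medians centred again 4786 were higher and 3820 lower, with a median difference of 0.13 over all transcripts, and with cyclic loess 3938 and 4307. Leaving out each array in turn gave 7561 to 8535 calls. Without 18 h APF C and 24 h APF B, an alternative added after the data were seen, 8940 were called. The letters B and D occur in both stages, and whether they pair samples could not be decided. Deviations from the stage means correlated by 0.234 for B and 0.0653 for D, and different letters by up to 0.309. With 3 arrays of 36 h and 4 of 6 h APF such correlations cannot exclude a pairing. With the letter as a replicate block 6655 transcripts were called and 7 of the 17 named genes, against 12. The block ended the calls of HDAC3 (adjusted p = 0.0791), rdx (0.108), His4r (0.12), CG31178 (0.0578) and Uba1 (0.0686), and of the shared transcripts CG42497/Tim10, Mocs2A/Mocs2B, CG7950/Rpp14a and CG6191/CG45088 (0.0516 to 0.144).

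Among the named genes alpha-Spec turned to 0.044 with medians centred again and to 0.12 with cyclic loess, and ranged from -0.15 to 0.054 with 1 array left out (above 0 without 36 h D or 6 h E). With 1 array left out SuUR ranged from -0.18 (without 36 h B) to 0.27, and was -0.022 without 6 h D. Dyrk3 ranged from -0.020 (without 36 h D) to 0.13. None of these passed the test in any alternative. The transcript of fend passed it with the pooled array counted (adjusted p = 0.0249) and without 18 h APF C and 24 h APF B (adjusted p = 0.0319). The calls of NaPi-III, Fatp1, LanA, mio, sle, Wdr24 and CG16974 held in all 21 alternatives run for single genes. The Bonferroni adjustment and the 1.5-fold requirement were not among those 21. The cause of these shifts was not tested.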

Other observations

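The pooled 36 h array took no part in the test. It correlated with 36 h APF B by 0.976, with D by 0.979 and with C, whose RNA it does not hold, by 0.959. Of the 8508 called transcripts 97.0% lay on the called side of the 6 h mean in it. The pooled array, with RNA from samples B and D, lay between them for 4688 transcripts (30.3%). It was over 2-fold beyond both for 543 (3.51%), 167 above and 376 below. How often the spread between arrays alone gives such values was not counted. His4r read 7.51 in the pooled array, against 9.14 in B and 9.51 in D, and fend read 7.20, against 8.38 in B and 8.21 in D. The cause was not tested.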
